A study of Mus musculus with 32 samples.

Results

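The genes described here are those whose response to osteoglycin (OGN) differed between the fibroblasts and the epithelial cells of mouse lung organoid cultures. For each gene the log2 change with OGN in Epcam+ cells was subtracted from the log2 change with OGN in CCL206 fibroblasts, so that a positive difference is a higher response in the fibroblasts. Of 11818 genes with deposited counts, 11800 had enough counts to be tested, and 90 of them (0.763%) had a difference with an adjusted p under 0.05. The response was higher in CCL206 fibroblasts for 78 genes (0.661% of genes tested) and higher in Epcam+ cells for 12 (0.102%).

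OGN, also called mimecan, is a secreted member of the small leucine-rich proteoglycans, a family of matrix proteins that bind collagen and growth factors, and in the lung it is made mainly by fibroblasts. In organoid cultures of this kind epithelial progenitors grow inside a matrix gel next to supporting fibroblasts, and both cell types are exposed to whatever is added to the medium. A protein that is added can act on either cell type directly, and each cell type can pass signals on to the other, so the response of both is read after they have been sorted apart again.

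CD45-/CD31-/Epcam+ cells, which are epithelial cells without leukocytes and endothelial cells, were taken from the lungs of naive adult C57BL/6J mice and mixed 1:1 with CCL206, an established line of mouse lung fibroblasts kept from dividing with mitomycin C. Each culture was started with 300000 Epcam+ cells and received vehicle or human recombinant OGN at 10 µg/mL for 72 h, and the cells were then separated with Epcam (CD326) microbeads into an Epcam+ and a CCL206 fraction. The 16 bulk RNA-seq libraries analyzed were 4 of Epcam+ cells with vehicle, 4 of Epcam+ cells with OGN, 4 of CCL206 fibroblasts with vehicle and 4 of CCL206 fibroblasts with OGN, from mice 1 to 4. Since CCL206 is 1 line, a mouse number on a CCL206 library stands for the mouse whose epithelial cells shared the culture. No label names a batch.

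The libraries held 3067660 to 16662822 counts, with group medians of 4196271.5 in Epcam+ cells with vehicle, 5571363 in Epcam+ cells with OGN, 9579315.5 in CCL206 fibroblasts with vehicle and 10547571.5 in CCL206 fibroblasts with OGN. No gene of the table had 0 counts in any library, so a gene switched off entirely in 1 fraction could not be among the 90. The fractions differed in their markers as labelled, but each also held RNA of the other cell type. The summed level of 9 fibroblast markers (Dcn, Lum and Col1a2 among them) was 11685 to 12951 CPM (counts scaled to library size) in the 8 CCL206 libraries and 2068 to 3123 CPM in the 8 Epcam+ libraries. Fbln1, 1 of the 9, went the other way. With vehicle it had 22, 26, 26 and 26 counts in CCL206 libraries and 564, 111, 151 and 31 in Epcam+ libraries. The summed level of 12 general epithelial markers (Epcam, Cdh1 and the keratins among them) was 8377 to 12482 CPM in Epcam+ libraries, 294 to 754 CPM in CCL206 libraries with vehicle and 517 to 1031 CPM in CCL206 libraries with OGN. Within bulk samples, fewer cells of a type and less RNA per cell cannot be told apart.

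OGN changed more genes in the fibroblasts than in the epithelial cells when each fraction was tested alone, with 633 genes up (5.36% of genes tested) and 380 down (3.22%) in CCL206 fibroblasts (1013 genes, 8.58%), and 168 up (1.42%) and 104 down (0.881%) in Epcam+ cells (272 genes, 2.31%). The test of the difference itself selected the 90 genes. Among them 50 rose in CCL206 fibroblasts while their change in Epcam+ cells did not pass the test, and 24 rose in both fractions, by more in the fibroblasts. Soat1, Aqp3 and Adh7 fell in Epcam+ cells, with no change past the test in CCL206 fibroblasts. Epas1 rose in CCL206 fibroblasts and fell in Epcam+ cells, and Ly6c1 and Adamts9 did the opposite. Of the remaining genes with the higher response in Epcam+ cells, 6 (Rnd3, Spry2, Mbnl3, Plau, Tpm1 and Myc) fell in CCL206 fibroblasts and 4 (Ly6a, Tnfaip2, Creb3l1 and Slco1a5) rose in Epcam+ cells.

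**Figure D1:**
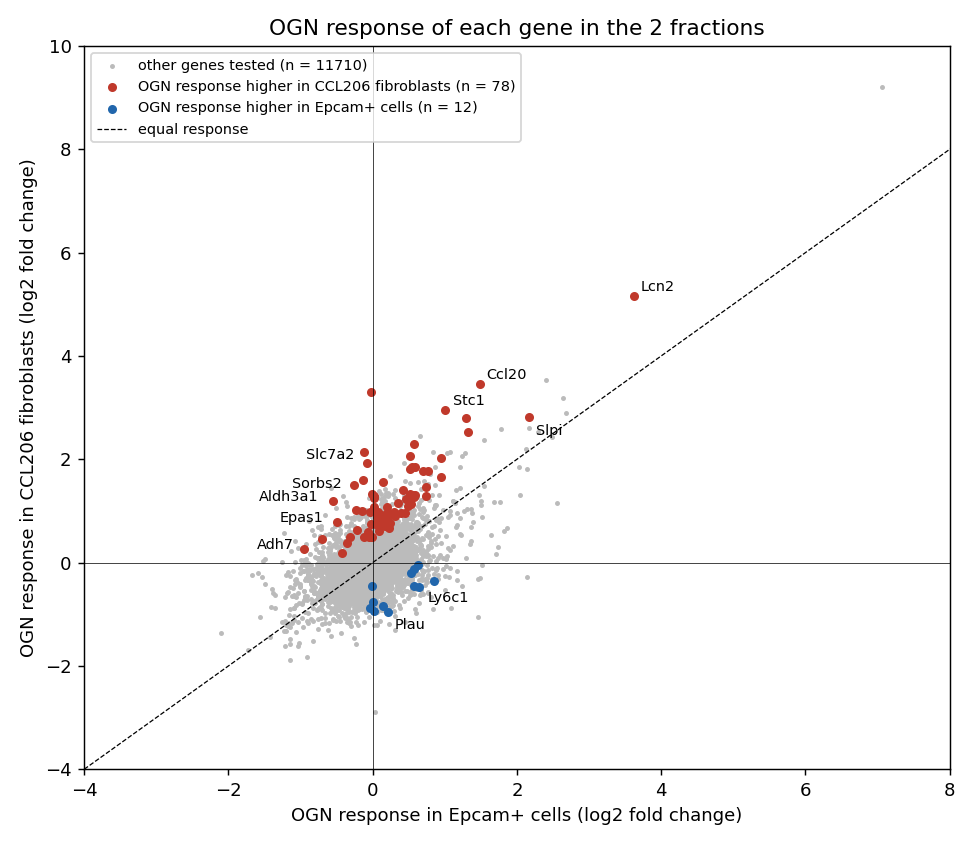
Log2 fold change with OGN in Epcam+ cells (x axis) and in CCL206 fibroblasts (y axis) for each gene tested; the dashed line marks an equal response. The 78 genes in red lie above the line, 74 of them with a rise in CCL206 fibroblasts alone or in both fractions and none with a fall in CCL206 fibroblasts that passed the test, and the 12 genes in blue lie below it.

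The median size of the 90 differences was 0.82 on the log2 scale, with a range of 0.44 to 3.33, and 33 genes differed by more than 1 (29 higher in CCL206 fibroblasts, 4 in Epcam+ cells). In 89 genes the difference had its direction in all 4 mice, and in Ccl20 it had it in 3 of 4. The genes were selected on these same 4 mice, so agreement of direction between mice or fits is in large part set by the selection. All 90 kept their direction when any mouse was left out, but the number of genes called was 72 without mouse 1, 17 without mouse 2, 19 without mouse 3 and 47 without mouse 4. The 9 genes that were called with each mouse left out in turn were Slc7a2, Il33, Ptges, Sorbs2, Epas1, Sema3c, Bbln, Lcn2 and Sod2. Every other gene lost its call in at least 1 of these fits, which is not repeated for each gene below. At the other end, 26 of the 90 were called in none of these fits. Among them were Slpi, Gpi1, Tgfb1, Cp, P4ha2, Mgst1, Aqp3, Gbe1, Pdgfa, Creb3l1, Slco1a5, Tpm1 and Mbnl3. When mouse was left out of the model 55 genes were called, 52 of them among the 90. At the edge of the threshold, Pdgfa was inside with an adjusted p of 0.0485 and Ptgs2os2 outside with 0.0503.

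The largest difference among the 15 genes with the smallest p on the fibroblast side was that of Slc7a2, a cationic amino acid transporter that carries arginine and lysine. With vehicle its level in CCL206 fibroblasts was 21.6, 16.5, 19.5 and 17.9 CPM in mice 1 to 4, and with OGN 67.1, 81.9, 71.2 and 67.5 CPM. In Epcam+ cells it was 38.5, 37.9, 46.8 and 31.1 CPM with vehicle and 40.3, 33.3, 42.3 and 29.4 CPM with OGN. The groups of CCL206 fibroblasts did not overlap, while those of Epcam+ cells overlapped. The fibroblasts went from 48.9% to 198% of the mean level of the epithelial cells. The log2 change was 1.93 ± 0.12 (SE) in CCL206 fibroblasts and -0.080 ± 0.12 in Epcam+ cells, a difference of 2.01 ± 0.17 (adjusted p = 2.96e-06, edgeR's quasi-likelihood test with Benjamini-Hochberg adjustment, as for all adjusted p values given here).

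Il33 encodes an alarmin cytokine of the IL-1 family that is stored in the nucleus and released by damaged barrier cells. Its level in CCL206 fibroblasts was 71.9, 63.7, 51.9 and 53.0 CPM with vehicle and 241, 213, 192 and 222 CPM with OGN. Epcam+ cells had 174, 166, 164 and 136 CPM with vehicle and 248, 256, 242 and 215 CPM with OGN. Every library with OGN was above every library with vehicle in both fractions, and the rise was larger in fibroblasts in each mouse, by 1.23, 1.11, 1.33 and 1.40 on the log2 scale in mice 1 to 4. Il33 rose by 1.86 in CCL206 fibroblasts and 0.58 in Epcam+ cells, a difference of 1.28 ± 0.11 (adjusted p = 2.96e-06). It was the 1 called of 18 tested cytokine and cytokine receptor genes, and the list's median difference was 0.014 against 0.0043 over all genes. Over all genes tested 0.661% were called on the fibroblast side and 0.102% on the epithelial side. These shares belong beside each count of called list members here and below. Exons of Il33 overlap those of an annotated gene on the opposite strand (Gm41832), and whether counting used strand is not given in the sources used here.

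Ptges, which encodes the microsomal synthase that makes prostaglandin E2, rose in both fractions, as Il33 did. In CCL206 fibroblasts Ptges was at 46.5, 47.1, 39.0 and 44.4 CPM with vehicle and 158, 176, 149 and 150.3 CPM with OGN, and in Epcam+ cells at 89.6, 93.9, 95.9 and 59.6 CPM with vehicle and 119.8, 133, 136 and 103 CPM with OGN. The groups did not overlap in either fraction, and the difference of the responses was 1.30 ± 0.12 (adjusted p = 5.27e-06). Pla2g4a encodes the cytosolic phospholipase that frees arachidonic acid, the substrate from which prostaglandins are made. It went from 55.9, 54.7, 50.6 and 48.5 CPM to 87.0, 96.5, 81.2 and 88.6 CPM in CCL206 fibroblasts, without overlap, and was 57.8, 45.0, 64.1 and 38.9 CPM and then 57.1, 47.6, 52.5 and 44.8 CPM in Epcam+ cells, where the groups overlapped. Its difference was 0.78 ± 0.14 (adjusted p = 0.0105), and its call was lost without mouse 2 or mouse 3. These were the 2 called of 15 genes tested in the list of prostaglandin and glucocorticoid metabolism (against 0.661% of all genes), whose median difference was 0.076. Ptges exons also overlap an opposite-strand gene (Gm74745).

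Sorbs2, an adaptor protein of actin-based adhesions, rose in fibroblasts from 14.3, 12.6, 12.2 and 13.0 CPM to 34.7, 37.3, 35.0 and 40.4 CPM. In Epcam+ cells Sorbs2 was 48.6, 48.9, 64.5 and 50.4 CPM with vehicle and 45.3, 37.9, 52.6 and 40.4 CPM with OGN, lower with OGN in each mouse, although this change of -0.26 ± 0.11 did not pass the test (adjusted p = 0.302). The difference of 1.77 ± 0.16 (adjusted p = 5.27e-06) was 1.36, 1.91, 1.80 and 1.94 in mice 1 to 4. Sema3c, a secreted semaphorin that guides migrating cells and growing vessels, rose in fibroblasts from 37.4, 38.7, 30.9 and 31.9 CPM to 87.0, 80.1, 94.8 and 85.6 CPM. Its levels in Epcam+ cells were 122, 111, 124 and 104 CPM with vehicle and 118, 112, 119 and 111 CPM with OGN. The Epcam+ groups overlapped and the fibroblast groups did not, and the difference of Sema3c was 1.33 ± 0.13 (adjusted p = 1.28e-05). Bbln, which had a difference of 1.30 ± 0.18 (adjusted p = 0.00123), rose from 16.8, 16.1, 16.2 and 17.1 CPM to 65.3, 61.0, 51.6 and 57.0 CPM in CCL206 fibroblasts and from 23.2, 17.5, 20.2 and 19.0 CPM to 29.8, 26.6, 33.7 and 24.7 CPM in Epcam+ cells. Exons of Sorbs2 and of Bbln overlap those of opposite-strand genes, for Bbln those of the expressed gene Ciz1.

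Epas1 encodes HIF-2α, 1 of the oxygen-regulated subunits of the hypoxia-inducible transcription factors, and its response had opposite signs in the fractions. In CCL206 fibroblasts Epas1 was at 35.3, 24.0, 21.9 and 18.6 CPM with vehicle and 54.6, 39.2, 43.7 and 32.4 CPM with OGN. It was at 345, 383, 355 and 231 CPM with vehicle and 228, 252, 284 and 169.9 CPM with OGN in Epcam+ cells. The groups overlapped in both fractions because the mice differed in level, but within every mouse the level rose in fibroblasts and fell in Epcam+ cells. The log2 changes were 0.79 ± 0.089 (adjusted p = 7.94e-06) and -0.49 ± 0.077 (adjusted p = 0.00085), and the difference of 1.28 ± 0.12 was close to the same size in the 4 mice, at 1.22, 1.30, 1.32 and 1.24. Without mouse in the model the difference was no longer called. The level of Epas1 in fibroblasts with vehicle was 7.59% of that in Epcam+ cells.

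**Figure D2:**
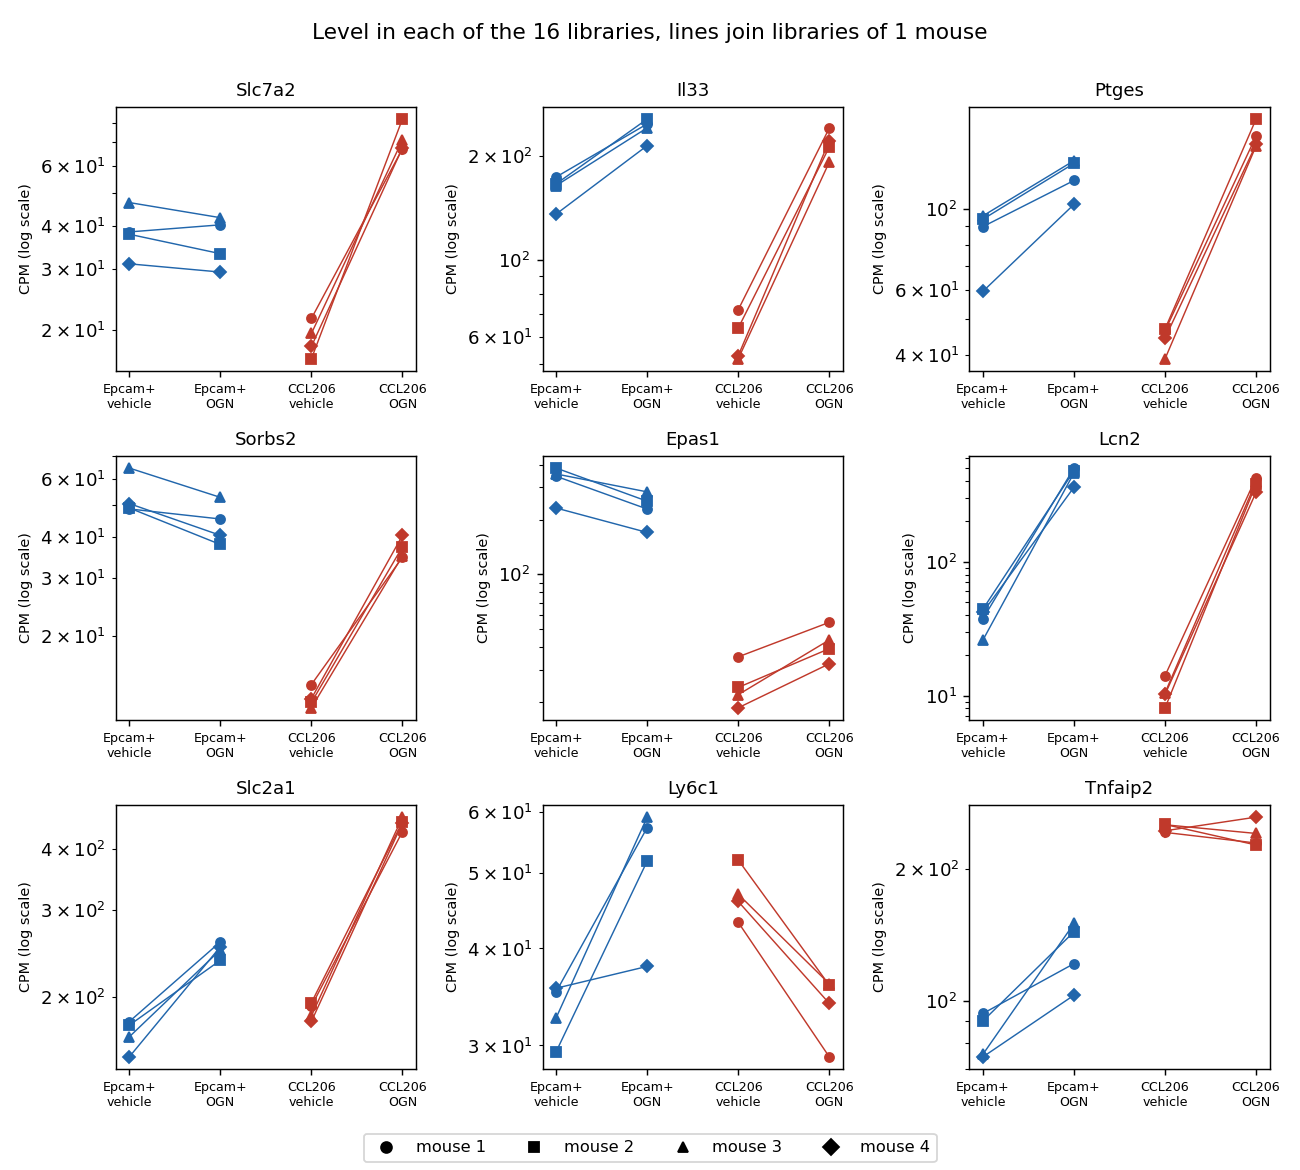
Level in CPM (log scale) of 9 genes in each of the 16 libraries, with Epcam+ cells in blue and CCL206 fibroblasts in red, and lines joining the vehicle and OGN libraries of 1 mouse. Slc7a2 and Sorbs2 rise in the red libraries only, Il33, Ptges, Lcn2 and Slc2a1 rise in both with a steeper red line, Epas1 and Ly6c1 move in opposite directions, and Tnfaip2 rises in the blue libraries.

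In the list of glycolysis and hypoxia response genes, many of which are induced when HIF subunits are stable, 22 of 27 tested members rose and none fell in CCL206 fibroblasts, where 5.36% of all genes rose. In Epcam+ cells 17 of the 27 rose and none fell, against 1.42% of all genes that rose. The responses differed in 3 of the 27 (Slc2a1, Gpi1 and Pgam1), all with the higher response in fibroblasts, and the list's median difference was 0.31 against 0.0043 over all genes. Slc2a1, the glucose transporter GLUT1, was at 191, 194, 183 and 178 CPM in CCL206 fibroblasts with vehicle and 435, 455, 465 and 453 CPM with OGN. In Epcam+ cells Slc2a1 was at 178, 175, 166 and 151 CPM and 259, 237, 249 and 253 CPM. The groups with vehicle and with OGN did not overlap in either fraction, and the rise of 1.28 in fibroblasts exceeded that of 0.58 in Epcam+ cells by 0.70 ± 0.10 (adjusted p = 0.0022). Gpi1, the second enzyme of glycolysis, went from 744, 719.7, 783 and 798 CPM to 1256, 1206, 1168 and 1229 CPM in fibroblasts and from 510.1, 530.3, 487 and 511 CPM to 608, 602, 604 and 570.1 CPM in Epcam+ cells, a difference of 0.45 ± 0.10 (adjusted p = 0.033). Pgam1, which acts later in the same pathway, differed by 0.59 ± 0.12 (adjusted p = 0.0182). Slc2a1 lost its call without mouse 2, Pgam1 without any of mice 1, 2 and 4, and Gpi1 without any 1 mouse.

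Gys1, the glycogen synthase of tissues other than the liver, was not on that list. Its level was 86.7, 75.3, 81.8 and 87.5 CPM with vehicle and 189, 177, 170.4 and 197 CPM with OGN in CCL206 fibroblasts, and 77.6, 61.8, 61.7 and 64.7 CPM and 99.9, 80.5, 92.1 and 65.4 CPM in Epcam+ cells. Fibroblast groups of Gys1 did not overlap and Epcam+ groups did, and the difference was 0.80 ± 0.12 (adjusted p = 0.00319), lost without mouse 2. Further members of the 90 that act on glucose, glycogen or the sensing of oxygen were picked out after their values had been seen, so they count as a description. Pgm1, which interconverts glucose phosphates for glycogen, differed by 0.57 ± 0.11 (adjusted p = 0.0143), and Gbe1, the glycogen branching enzyme, by 0.83 ± 0.17 (adjusted p = 0.0249). Slc16a1, the lactate and pyruvate transporter MCT1, differed by 0.77 ± 0.12 (adjusted p = 0.00481) and Egln1, the prolyl hydroxylase that marks HIF subunits for breakdown, by 0.69 ± 0.13 (adjusted p = 0.0127). All 4 had the higher response in fibroblasts. Exons of Gys1 overlap those of the opposite-strand gene Ruvbl2, and those of Pgm1 overlap Itgb3bp.

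In the list of acute-phase and secreted defence genes, 4 of 12 tested members (Lcn2, Hp, Pglyrp1 and Slpi) had a higher response in fibroblasts. Of the 12, 8 rose in CCL206 fibroblasts (against 5.36% of all genes) and 6 in Epcam+ cells (against 1.42%), none fell, and the median difference was 0.70 with the higher response in fibroblasts. Lcn2, lipocalin 2, which binds bacterial siderophores and so withholds iron, was at 14.1, 8.10, 10.5 and 10.2 CPM in fibroblasts with vehicle and 424, 381, 396 and 331 CPM with OGN. In Epcam+ cells Lcn2 was at 37.6, 44.3, 26.1 and 42.0 CPM with vehicle and 501, 479, 462 and 361 CPM with OGN. Its level with OGN was thus similar in the fractions (85.0% of the Epcam+ level) after a lower start in fibroblasts (28.6%), with changes of 5.16 ± 0.15 and 3.62 ± 0.14 and a difference of 1.54 ± 0.20 (adjusted p = 0.0022). Slpi, an inhibitor of leukocyte proteases, started level in the fractions (28.0, 34.7, 37.4 and 38.5 CPM in fibroblasts and 32.1, 26.5, 27.9 and 43.1 CPM in Epcam+ cells) and reached 236, 218, 268 and 249 CPM in fibroblasts and 144, 132, 126 and 178 CPM in Epcam+ cells. No OGN group of Slpi overlapped another group, and the difference was 0.65 ± 0.12 (adjusted p = 0.0159). It lost its call without any 1 mouse and without mouse in the model, and its exons overlap those of Matn4 on the same strand.

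Hp, haptoglobin, which binds free haemoglobin, rose in fibroblasts from 104, 71.9, 77.3 and 43.0 CPM to 359, 324, 411 and 304 CPM. In Epcam+ cells Hp was 965, 781, 927 and 915 CPM with vehicle and 1099, 1261, 1220.4 and 1868 CPM with OGN, a change of 0.57 ± 0.16 that did not pass the test (adjusted p = 0.125) although all OGN libraries were above all vehicle libraries. The difference was 1.72 ± 0.23 (adjusted p = 0.0104, lost without mouse 2 or mouse 3), and Hp in fibroblasts went from 8.26% to 25.7% of the Epcam+ level. Pglyrp1, a peptidoglycan-binding protein, was at 0.884 to 2.74 CPM in fibroblasts with vehicle and at 4.50 to 16.7 CPM with OGN, and its difference was 1.22 ± 0.24 (adjusted p = 0.0175). Saa3, an acute-phase apolipoprotein, had 1, 1, 3 and 12 counts in fibroblasts with vehicle and 18, 2, 4 and 1 counts in Epcam+ cells, near the floor of 3 counts per library, so its fold changes have no firm size. With OGN it had 1433 to 3943 counts in fibroblasts and 358 to 1421 counts in Epcam+ cells, and the difference did not pass the test (adjusted p = 0.158). Cp, ceruloplasmin, the copper oxidase that loads iron onto transferrin, rose from 1262, 1227, 1297 and 1428 CPM to 3127, 3292, 3036 and 3198 CPM in fibroblasts and from 757, 816, 956 and 823 CPM to 1339, 1501, 1444 and 1319 CPM in Epcam+ cells. The groups of Cp were apart in both fractions, with a difference of 0.54 ± 0.10 (adjusted p = 0.0162). Cp and Lcn2 were the 2 called of 18 tested iron handling genes, whose median difference was 0.24.

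Innate immune sensing and chemotaxis contributed single genes. Cd14, the lipopolysaccharide co-receptor, was at 27.7, 35.0, 29.7 and 27.3 CPM in fibroblasts with vehicle and 106, 85.4, 125 and 91.5 CPM with OGN, against 258, 263, 281 and 239.6 CPM and 379.6, 460.1, 414 and 541 CPM in Epcam+ cells. It rose in both fractions, by 1.00 ± 0.17 more in fibroblasts (adjusted p = 0.0134). Cd14 is also a marker of macrophages, on a list of which Cd68 and Lyz2 (also made by type 2 alveolar cells) were the other members tested. It was 1 of 14 tested genes of Toll-like receptor signalling to be called, and the list's median difference was -0.028. Ccl20, a chemokine for CCR6-bearing lymphocytes and dendritic cells, rose from 0.786 to 2.47 CPM in fibroblasts with vehicle to 10.5 to 19.9 CPM with OGN. In Epcam+ cells Ccl20 rose from 12.0 to 32.2 CPM to 52.7 to 81.1 CPM. The difference of 1.97 ± 0.41 (adjusted p = 0.0412) was 2.25, -0.034, 3.01 and 1.62 in mice 1 to 4, so that mouse 2 showed none. Ccl20 was the 1 of 13 tested chemokine ligands whose response differed.

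Of the antioxidant genes, 2 differed in the same direction. Sod2, the mitochondrial superoxide dismutase, had near equal levels in the fractions with vehicle, at 86.1, 87.5, 92.6 and 83.8 CPM in CCL206 fibroblasts and 89.2, 87.7, 98.3 and 110.0 CPM in Epcam+ cells. With OGN it was at 225, 219.8, 205 and 223 CPM in fibroblasts and 138, 147, 133 and 159 CPM in Epcam+ cells, and no group with OGN overlapped one with vehicle. The responses of 1.32 and 0.58 differed by 0.73 ± 0.11 (adjusted p = 0.00268). Slc7a11, the cystine importer of glutathione synthesis, went from 33.3, 24.8, 26.5 and 26.1 CPM to 94.0, 93.2, 91.1 and 71.0 CPM in fibroblasts and from 134, 111, 144 and 116 CPM to 260.2, 232, 252 and 226 CPM in Epcam+ cells. Slc7a11 thus rose in every mouse and fraction, by 0.71 ± 0.12 more in fibroblasts (adjusted p = 0.00986, lost without mouse 2 or mouse 3). These were the 2 called of 25 tested genes of peroxide, superoxide and glutathione metabolism (median difference 0.12), and also the 2 called of the 17 genes that the study singles out in its own account of these libraries, a choice that is no independent evidence.

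Among the other genes of those 17, the growth factors had responses of nearly the same size in the fractions. Hgf, hepatocyte growth factor, rose by 1.31 in CCL206 fibroblasts and 1.48 in Epcam+ cells, with a difference of -0.17 ± 0.16 (adjusted p = 0.863). Fgf7, keratinocyte growth factor, rose by 1.18 and 1.13, with a difference of 0.045 ± 0.22 (adjusted p = 0.989), and Fgf10 by 1.19 and 1.12, with a difference of 0.073 ± 0.27 (adjusted p = 0.983). Their levels in CCL206 fibroblasts with vehicle were 857%, 504% and 667% of the Epcam+ levels, beside a median of 442% for the 9 fibroblast markers. What part the fibroblast RNA in the Epcam+ libraries had in their Epcam+ responses was not tested. Wnt7b had a difference of 1.20 ± 0.30 that did not pass the test (adjusted p = 0.0838). Unlike the growth factors above, Wnt7b was low in fibroblasts. With vehicle it had 30, 6, 30 and 15 counts in CCL206 libraries and 1589, 317, 526 and 302 in Epcam+ libraries. The other study genes outside the 90 had adjusted p values from 0.158 (Emp2) to 0.994 (Fgf2). No gene was called in the lists of collagens and structural matrix, complement, interferon response, cell cycle, p53 targets, Wnt genes, or ligands and receptors of the FGF, HGF and EGF families. With 0.763% of all genes tested called, lists of such length would hold few calls or none. The cell cycle list had a median difference of -0.27. Of its 31 tested genes 7 fell in CCL206 fibroblasts (against 3.22% of all genes) and none in Epcam+ cells. The lists of the TGF-beta and BMP pathway and of the IGF axis held 1 each, Tgfb1 and Stc1.

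Matrix and secreted factors that fibroblasts make had a few members among the 90. Lox, lysyl oxidase, which crosslinks collagen and elastin, rose from 77.3, 74.6, 85.3 and 85.8 CPM to 197, 222, 241 and 235 CPM in fibroblasts and from 26.9, 25.3, 35.6 and 42.8 CPM to 52.1, 48.3, 58.4 and 54.4 CPM in Epcam+ cells, a difference of 0.73 ± 0.13 (adjusted p = 0.0143). P4ha2, a collagen prolyl hydroxylase subunit, differed by 0.60 ± 0.12 (adjusted p = 0.0182). The 2 were called of 15 tested crosslinking and collagen-modifying genes, with a median difference of 0.12. Tgfb1, the growth factor TGF-β1, which drives matrix production, was at 32.4, 28.0, 31.0 and 37.7 CPM and 65.5, 52.5, 61.0 and 68.5 CPM in fibroblasts without and with OGN. Its levels in Epcam+ cells were 34.0, 35.6, 31.1 and 37.8 CPM and 40.0, 40.7, 43.8 and 37.7 CPM, and the difference of Tgfb1 was 0.70 ± 0.15 (adjusted p = 0.033), lost without any 1 mouse. Stc1, the secreted glycoprotein stanniocalcin 1, was low with vehicle, at 2.99, 2.88, 1.67 and 3.05 CPM in fibroblasts, and reached 33.3, 25.6, 10.8 and 17.0 CPM with OGN. In Epcam+ cells Stc1 was at 4.10, 3.24, 2.65 and 2.52 CPM and 5.99, 7.06, 6.58 and 6.32 CPM. Fibroblast groups of Stc1 were far apart but spread widely with OGN, and the difference was 1.94 ± 0.37 (adjusted p = 0.0159), lost without any of mice 1, 2 and 3.

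In the list of xenobiotic and aldehyde metabolism 7 of 27 tested genes fell and none rose in Epcam+ cells (against 0.881% of all genes that fell), 6 fell and 4 rose in CCL206 fibroblasts, and the median difference was 0.33. Airway and basal cell markers moved with this fall: in Epcam+ libraries the summed level of 7 airway markers was 4371 to 5355 CPM with vehicle and 2483 to 3709 CPM with OGN, and that of 5 basal markers 1047 to 2803 CPM and 609 to 1811 CPM, with median log2 changes of -0.27 and -0.58 and 2 members of each list that fell. Their part in the result was not tested. Adh7, an alcohol dehydrogenase that oxidizes retinol, was at 91.9, 101, 89.6 and 64.9 CPM in Epcam+ cells with vehicle and 35.8, 47.6, 56.2 and 40.7 CPM with OGN, lower with OGN in each mouse. In fibroblasts Adh7 was at 2.13, 1.78, 3.90 and 3.44 CPM and 3.63, 2.60, 4.45 and 3.00 CPM, where the groups overlapped, and the difference was 1.21 ± 0.26 (adjusted p = 0.0342). Aldh3a1, an aldehyde dehydrogenase, rose in fibroblasts from 19.4, 18.1, 14.7 and 16.7 CPM to 32.4, 34.5, 43.7 and 44.5 CPM and was 125, 144, 138 and 92.9 CPM and 67.3, 79.2, 90.1 and 107 CPM in Epcam+ cells. It was lower there with OGN in mice 1 to 3 and not in mouse 4, and the difference was 1.74 ± 0.25 (adjusted p = 0.00986). Mgst1, a microsomal glutathione transferase, differed by 0.52 ± 0.12 (adjusted p = 0.0418). Aqp3, a water and glycerol channel and 1 of those 5 basal markers, fell in Epcam+ cells from 376, 415, 362 and 134 CPM to 207, 244, 274 and 77.2 CPM. In fibroblasts Aqp3 was at most at 6.12 CPM in any library, and the difference was 1.15 ± 0.23 (adjusted p = 0.0237). Soat1, which esterifies cholesterol, fell in Epcam+ cells from 149.7, 133, 114 and 146 CPM to 109, 104, 93.9 and 94.0 CPM, without overlap, and had similar levels in fibroblasts (171, 143, 142 and 133 CPM and 162, 185, 163 and 158 CPM), with a difference of 0.62 ± 0.12 (adjusted p = 0.0159).

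Besides Epas1, 3 of the 15 genes with the smallest p on the fibroblast side had low levels in fibroblasts compared with epithelial cells. Ehf, an epithelial transcription factor of the ETS family, was at 8.75, 3.84, 5.48 and 2.85 CPM in fibroblasts with vehicle and 15.2, 12.0, 14.1 and 7.87 CPM with OGN, against 103, 107, 103 and 82.9 CPM and 108, 123, 92.5 and 82.2 CPM in Epcam+ cells. Slc4a4, a sodium bicarbonate cotransporter, was at 17.2, 8.51, 10.5 and 6.78 CPM and 26.1, 22.0, 23.9 and 15.2 CPM in fibroblasts and between 107 and 154 CPM in Epcam+ cells. Sprr1a, a precursor of the cornified envelope of squamous epithelium, was at 8.11, 5.49, 5.38 and 4.22 CPM and 19.0, 7.71, 11.4 and 9.75 CPM in fibroblasts and between 45.1 and 67.4 CPM in Epcam+ cells. Their differences were 1.26 ± 0.18 (adjusted p = 0.0022), 1.06 ± 0.16 (adjusted p = 0.00315) and 1.25 ± 0.20 (adjusted p = 0.0044), and the groups in fibroblasts overlapped for all 3. Hspa4l, a chaperone of the HSP110 family, was at 22.4% of the Epcam+ level with vehicle and 40.4% with OGN, with a difference of 0.86 ± 0.12 (adjusted p = 0.0022).

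Such a low starting level was common on the fibroblast side. Of the 78 genes, 26 had a level in CCL206 fibroblasts with vehicle under 15% of that in Epcam+ cells, against 3.89% of all genes tested (459 genes), and none of the 12 genes on the epithelial side did. With OGN the 26 were still at 2.46% to 45.1% of the Epcam+ level. They comprise Epas1, Ehf, Slc4a4, Sprr1a, Hp, Pglyrp1, Cd14, Ccl20, Aqp3, Adh7, Aldh3a1 and Pdpn, named above or in the lists, and 14 others, of which Clu, Foxq1, Plet1, S100a14, Mlph and Cfap45 are given here after their values were seen. Pdpn is on the list of type 1 alveolar cell markers, where it was the 1 called of 9 tested, and that list's median difference was 0.13. All 459 genes with such a low ratio had a median difference of 0.40, made of a median response of 0.39 in CCL206 fibroblasts and 0.015 in Epcam+ cells.

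Epithelial markers in the CCL206 libraries moved with this result. The median level of the 12 general epithelial markers in CCL206 libraries was 8.56%, 4.44%, 5.64% and 3.38% of that in the Epcam+ library of the same mouse with vehicle, and 9.11%, 5.22%, 13.1% and 5.21% with OGN, higher with OGN in each mouse and most of all in mouse 3. All 12 had a higher response in fibroblasts (differences of 0.060 to 1.05, median 0.50), 5 rose in CCL206 fibroblasts, and none was called for the difference. Other epithelial classes moved this way in part. For the 7 airway markers the ratio was higher with OGN in each mouse. It was 4.51%, 2.77%, 3.79% and 1.85% in mice 1 to 4 with vehicle and 6.86%, 3.78%, 6.19% and 3.39% with OGN. The ratio of the 5 basal markers was also higher in each mouse, at 1.14%, 0.958%, 1.23% and 1.25% and then 2.78%, 1.55%, 2.88% and 6.15%. In CCL206 libraries the airway sum was 239 to 391 CPM with vehicle and 247 to 372 CPM with OGN. The basal sum there was 362 to 440 CPM and 312 to 427 CPM, and most of it was 1 gene, Dst. With vehicle, Dst had 3503, 2793, 3751 and 4389 counts in CCL206 libraries. Krt5, Krt15, Trp63 and Aqp3 had at most 40, 30, 56 and 48 counts there, so the sum says little about them. The airway and basal sums were both lower with OGN in Epcam+ libraries. For the 10 markers of type 2 alveolar cells the ratio was 32.8%, 21.4%, 24.4% and 12.1% in mice 1 to 4 with vehicle and 26.2%, 19.0%, 35.5% and 17.1% with OGN, and for 9 markers of type 1 cells it was 25.9%, 21.2%, 19.8% and 12.6% and then 23.0%, 18.5%, 26.7% and 18.1%. Both were lower with OGN in mice 1 and 2 and higher in mice 3 and 4. Of 12 leukocyte markers 3 were tested (Cd14, Lyz2 and Cd68), of which Cd14 and Lyz2 rose in both fractions, and their summed level in CCL206 libraries was 76.8 to 150.1 CPM with vehicle and 195 to 346 CPM with OGN. Of 10 endothelial markers 1 was tested, at no more than 3.92 CPM in any library. When the mean level of the epithelial markers in each CCL206 library was added to the model, a choice made after seeing the data, 27 genes were called, 13 higher in fibroblasts and 14 in Epcam+ cells, and 16 of them were among the 90. Of the 26 genes with the low ratio 1 (Epas1) was among the 16, and of the other 64 genes 15 were, including Slc7a2, Il33, Ptges, Sorbs2, Sema3c, Bbln, Sod2, Gys1, Pgam1 and Stc1. Lcn2, Slc2a1, Slc7a11, Slpi, Gpi1 and Hspa4l were among those that lost their call, with adjusted p values of 0.0626, 0.0761, 0.117, 0.113, 0.113 and 0.117. The median size of the difference went from 1.23 to 0.90 in the 26 genes and from 0.71 to 0.74 in the other 64. Ehf, Sprr1a and Foxq1 had 1.11, 1.14 and 1.62 with the term, after 1.26, 1.25 and 1.73 without it, and Plet1 had 0.67 after 1.54. All 90 genes kept their direction in that model. The term takes up a residual degree of freedom, and the part of epithelial RNA in the differences was not tested beyond it.

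**Figure D3:**
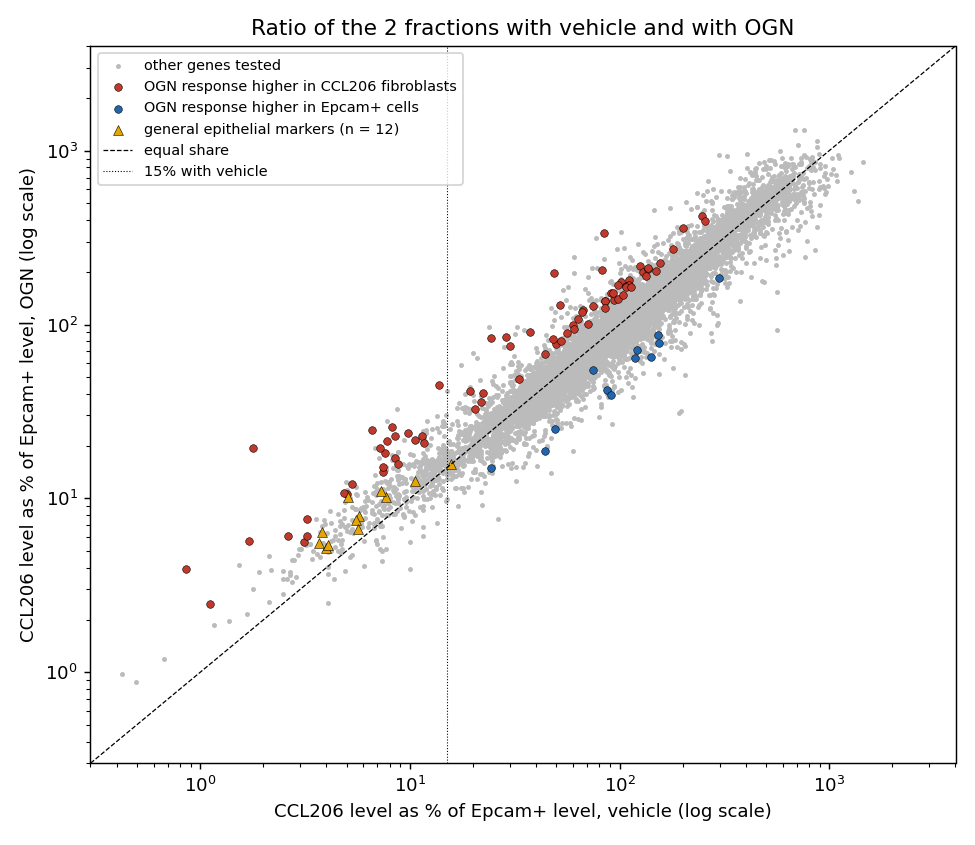
Mean level in CCL206 fibroblasts as a percent of that in Epcam+ cells, with vehicle (x axis) and with OGN (y axis), both on log scales; the dashed line marks an equal ratio and the dotted line 15%. The 26 genes with a higher response in fibroblasts left of the dotted line lie above the dashed line, as do the 12 general epithelial markers (triangles), and the other 52 red points lie to the right of the dotted line.

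The other 52 genes on the fibroblast side started at 15% or more of the Epcam+ level. Of the 78 genes 13 were at 15% to 50% of it with vehicle, 39 were at 50% or more of the Epcam+ level with vehicle, and 19 were above the Epcam+ level. With OGN 37 of the 78 were at a higher level in fibroblasts than in Epcam+ cells, and 18 of these had been lower with vehicle, Slc7a2, Ptges, Sod2, Slc16a1 and Egln1 among them. At the other end, C130074G19Rik had the largest difference of all 90 genes and had 1, 1, 1 and 2 counts in the fibroblast libraries with vehicle, which is under a floor of 3 counts per library, so its fold change has no firm size.

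The 12 genes with the higher response in Epcam+ cells fall into those that rose in the epithelial cells and those that fell in the fibroblasts. Ly6c1, a small surface protein of the Ly6 family, did both. It was at 35.2, 29.5, 32.6 and 35.6 CPM in Epcam+ cells with vehicle and 57.2, 51.8, 59.1 and 37.9 CPM with OGN, and at 43.2, 52.0, 47.0 and 46.0 CPM and 29.0, 35.9, 36.0 and 34.0 CPM in CCL206 fibroblasts. In mouse 4 the rise in Epcam+ cells was small, and in fibroblasts all 4 libraries with OGN were below all 4 with vehicle. The difference was -1.12 ± 0.17 (adjusted p = 0.00315), and it lost its call without mouse 2 or mouse 3. Adamts9, a secreted protease that cleaves large proteoglycans, also moved both ways, from 30.8, 24.0, 29.3 and 27.4 CPM to 55.3, 35.9, 33.8 and 42.6 CPM in Epcam+ cells and from 29.2, 25.0, 21.4 and 21.6 CPM to 18.8, 17.6, 18.3 and 15.5 CPM in fibroblasts, without overlap in either. Its difference was -1.02 ± 0.19 (adjusted p = 0.0143), and it was the 1 called of 24 tested metalloproteinases and inhibitors.

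Ly6a, also known as Sca-1, a surface marker of progenitor cells and a close relative of Ly6c1, rose in Epcam+ cells from 385, 409, 431 and 316 CPM to 459, 619.9, 674 and 559 CPM. In CCL206 fibroblasts Ly6a was at 91.7, 100.3, 91.4 and 91.8 CPM and 82.3, 87.0, 99.6 and 76.1 CPM, where the groups overlapped, and the difference was -0.70 ± 0.13 (adjusted p = 0.0122). Reads of such family members can be split between them by the counting, which is not described in the sources used here. Tnfaip2, a gene induced by tumour necrosis factor, rose in Epcam+ cells from 93.6, 90.0, 75.5 and 74.5 CPM to 122, 144, 150.4 and 103 CPM and stayed in the range of 243, 253, 253 and 245 CPM and 229.8, 227, 242 and 263 CPM in fibroblasts. Its difference was -0.68 ± 0.13 (adjusted p = 0.0143). Tnfaip2 was the 1 called of 17 tested genes in a list of NF-kB subunits and feedback inhibitors, with a median difference of -0.17. It is named here as an induced gene, not as a subunit or inhibitor. Tnip3, which was not on that list though Tnip1 was, is given after its values were seen. It was among the 90 with the higher response in fibroblasts, a difference of 1.09 ± 0.21 in the model over all 32 libraries. Creb3l1, a transcription factor anchored in the endoplasmic reticulum, rose in Epcam+ cells from 29.6, 29.1, 31.6 and 37.0 CPM to 41.0, 52.0, 42.2 and 50.3 CPM, with a difference of -0.74 ± 0.16 (adjusted p = 0.0275). Slco1a5, an organic anion transporter, rose there from 16.9, 18.8, 14.9 and 18.2 CPM to 27.8, 29.2, 37.7 and 29.4 CPM, with a difference of -1.22 ± 0.26 (adjusted p = 0.0342).

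The genes that fell in fibroblasts alone included regulators of the cytoskeleton and of growth signalling. Rnd3, whose protein loosens actin stress fibres, fell in CCL206 fibroblasts from 93.5, 92.6, 71.9 and 82.8 CPM to 46.5, 43.0, 54.8 and 43.6 CPM, without overlap. In Epcam+ cells Rnd3 was at 43.6, 68.0, 58.0 and 51.2 CPM and 60.8, 66.0, 55.4 and 57.2 CPM, and the difference was -0.99 ± 0.17 (adjusted p = 0.00989). Tpm1, a tropomyosin of actin filaments, fell from 627, 609.8, 623 and 629 CPM to 486, 416, 477 and 449.7 CPM in fibroblasts, the smallest of the 90 differences at -0.44 ± 0.10 (adjusted p = 0.038), and it was the 1 called of 14 tested contractile and YAP target genes (median difference -0.28). Plau, the urokinase that activates plasmin, fell in fibroblasts from 80.0, 73.1, 53.9 and 57.8 CPM to 32.2, 30.8, 40.7 and 29.6 CPM. Its levels in Epcam+ cells were 69.8, 89.3, 55.0 and 77.8 CPM and 73.6, 73.6, 74.3 and 118 CPM, with 1 high value in mouse 4, and the difference was -1.17 ± 0.22 (adjusted p = 0.0182).

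Spry2, a feedback inhibitor of receptor tyrosine kinases, fell in fibroblasts from 65.5, 74.5, 56.1 and 47.9 CPM to 36.0, 31.2, 31.6 and 32.1 CPM and had overlapping levels in Epcam+ cells, with a difference of -0.84 ± 0.17 (adjusted p = 0.0182). Myc, the transcription factor of growth and proliferation, fell from 77.6, 87.7, 42.8 and 45.7 CPM to 46.0, 43.2, 25.1 and 32.2 CPM in fibroblasts. The groups of Myc overlapped, with higher levels in mice 1 and 2 than in mice 3 and 4, but the fall was seen in each mouse, and the difference was -0.78 ± 0.17 (adjusted p = 0.0422). Mbnl3, an RNA-binding splicing regulator, fell from 16.6, 17.3, 15.4 and 16.5 CPM to 7.93, 9.52, 8.02 and 8.62 CPM, with a difference of -0.96 ± 0.19 (adjusted p = 0.0182). None of the 12 calls on the epithelial side was kept by edgeR when mouse 2 was left out, although all 12 kept their direction. In that fit 256 of 11812 genes tested had a higher response in Epcam+ cells at an unadjusted p under 0.05. With no difference in any gene, chance alone gives such a p to a share of 0.05 of genes tested, both directions together. The 256 were no more than chance gives in that direction, so they are no sign of a remaining signal. In the fit with every mouse, 1018 genes of the 11800 tested differed between the fractions at an unadjusted p under 0.05. This was a larger share than chance gives.

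**Figure D4:**
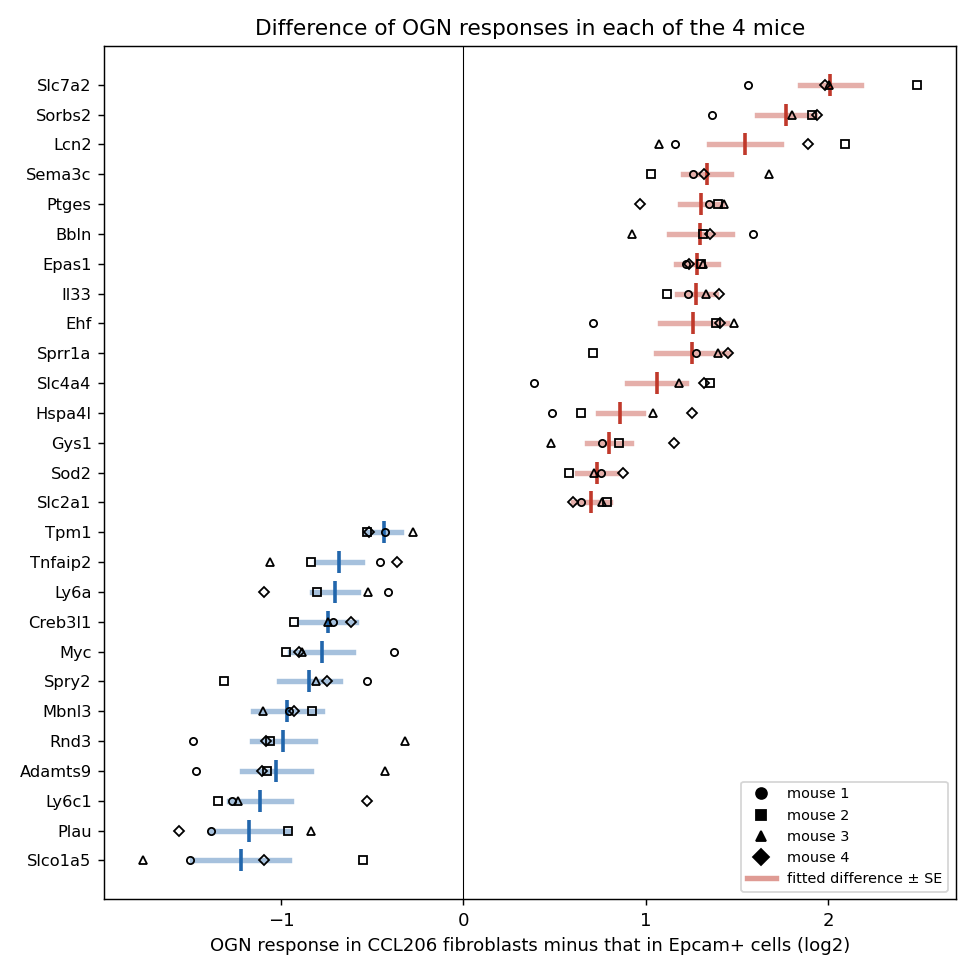
Difference of the log2 OGN responses (CCL206 fibroblasts minus Epcam+ cells, x axis) of the 27 genes with the smallest p in each direction, with the 4 mice as symbols and the fitted difference ± SE as a bar. All symbols lie on the side of the fitted difference, which selection of the genes on these 4 mice favours. The spread between mice is small for Epas1, Il33 and Slc2a1 and wide for Slc7a2, Slco1a5, Lcn2, Rnd3 and Slc4a4. Rnd3 is at -0.32 in mouse 3 and Slc4a4 at 0.39 in mouse 1.

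Promoters of the 90 genes were searched for 3 short motifs in RefSeq windows of the GRCm38.p6 build, from 250 bases before to 50 bases after the start, on both strands; 63 of the 90 genes had an entry. The core of the hypoxia response element, ACGTG, was present in 17 of the 63, a share of 27% against 29.9% of the tested genes with an entry and 19.6% of all promoters. All 17 were on the fibroblast side, which held 55 of the 63 genes. The kappa-B motif GGGNNNTTCC was present in 6 (9.52%, against 7.33% of tested genes and 5.56% of all promoters) and the AP-1 motif TGANTCA in 5 (7.94%, against 6.13% and 7.81%). These shares were near those of all tested genes, and a match is a description of the letters in the window. The windows below are shown because Sema3c and Slc2a1 are the genes with the smallest p that hold ACGTG, Sprr1a holds 2 AP-1 motifs and Ly6c1 has the smallest p of the 6 genes with the kappa-B motif; capitals mark the motif.
Sema3c, chr5:17574566-17574865, plus strand: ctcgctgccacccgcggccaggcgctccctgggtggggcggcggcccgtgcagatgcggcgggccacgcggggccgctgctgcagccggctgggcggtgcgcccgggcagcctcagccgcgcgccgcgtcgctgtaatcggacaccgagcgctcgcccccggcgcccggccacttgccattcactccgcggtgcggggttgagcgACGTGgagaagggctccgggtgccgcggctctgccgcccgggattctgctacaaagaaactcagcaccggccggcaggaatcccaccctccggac
Slc2a1, chr4:119108495-119108794, plus strand: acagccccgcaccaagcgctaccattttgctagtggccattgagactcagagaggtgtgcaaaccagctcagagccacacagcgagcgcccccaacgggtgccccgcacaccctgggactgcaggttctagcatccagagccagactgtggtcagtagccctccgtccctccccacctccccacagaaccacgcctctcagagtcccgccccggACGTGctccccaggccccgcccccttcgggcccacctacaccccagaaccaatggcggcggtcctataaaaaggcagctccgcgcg
Sprr1a, chr3:92485832-92486131, minus strand: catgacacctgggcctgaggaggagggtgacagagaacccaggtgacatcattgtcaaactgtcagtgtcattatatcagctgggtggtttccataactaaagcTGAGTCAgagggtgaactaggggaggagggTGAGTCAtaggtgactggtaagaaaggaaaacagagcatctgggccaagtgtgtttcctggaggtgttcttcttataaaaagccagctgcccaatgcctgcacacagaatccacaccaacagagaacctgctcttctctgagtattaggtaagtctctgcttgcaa
Ly6c1, chr15:75048614-75048913, minus strand, 1 of its 2 annotated starts: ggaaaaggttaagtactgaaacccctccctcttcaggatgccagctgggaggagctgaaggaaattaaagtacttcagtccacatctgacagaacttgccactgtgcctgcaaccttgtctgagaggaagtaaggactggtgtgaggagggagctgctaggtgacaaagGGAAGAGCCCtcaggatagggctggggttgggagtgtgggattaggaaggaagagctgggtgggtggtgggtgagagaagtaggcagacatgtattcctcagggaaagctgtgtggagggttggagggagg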

How the data were processed

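Raw counts per gene, without normalization, were deposited by the authors as 1 table of 32 libraries, of which the 16 with vehicle or OGN were used. Per the labels, reads were trimmed with Trimmomatic (version 0.30). The build is GRCm39 in the labels and an earlier one in the study's methods, and the aligner, counting program and annotation are not given in the sources used here. A low count limits precision, and counting error is the only error a floor of 3 counts covers.

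Counts were filtered with filterByExpr and TMM-normalized, and the difference of OGN responses was tested by edgeR's quasi-likelihood F test (version 4.0.16, R version 4.3.3), with mouse within each fraction and OGN within each fraction as terms (6 residual degrees of freedom). P values were adjusted by Benjamini-Hochberg over all genes tested. SE is the log2 value divided by the square root of F, and CPM values are TMM-scaled. Libraries treated with extracellular vesicles or soluble factors were left out of the model so that their spread did not enter the test, and the model over all 32 is an alternative. DESeq2 (version 1.42.0), other normalizations and filters, other blocks and each mouse left out were further alternatives.

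The text names up to 15 genes per direction, by smallest p (12 on the epithelial side), called genes of a gene list, and the genes the study names. The genes, lists and tests were chosen with earlier results of these data known. Mouse numbers come from the labels and pair the libraries, as in the study's analysis. Residuals of the same mouse correlated with a mean r of 0.103 in Epcam+ cells and 0.141 in CCL206 fibroblasts, against -0.031 and -0.047 for other mice. In Epcam+ cells the highest r, 0.483, was between mouse 1 with vehicle and mouse 3 with OGN, above 0.199, the highest of a same mouse. In CCL206 fibroblasts the highest, 0.296, was of the same mouse (mouse 4). The pairing therefore rests on the labels. Replicate libraries differed by more than counting error in all 24 pairs (chi-square at least 4.32 times its degrees of freedom). The procedure was tested on simulated data. Exon overlaps are from GENCODE and figures were drawn with matplotlib.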

Additional observations from a re-analysis of the deposited data

Results flagged for a closer look

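The OGN responses of 90 genes differed between CCL206 fibroblasts and Epcam+ cells by the test of the difference itself, 78 with the higher response in fibroblasts and 12 in Epcam+ cells, and for this the counts and the 27 named genes were marked. The differences were 2.01 for Slc7a2, 1.28 for Il33, 1.30 for Ptges, 1.77 for Sorbs2, 1.28 for Epas1, 1.33 for Sema3c, 1.30 for Bbln, 1.54 for Lcn2, 0.86 for Hspa4l, 0.70 for Slc2a1, 1.26 for Ehf, 0.73 for Sod2, 1.06 for Slc4a4, 0.80 for Gys1 and 1.25 for Sprr1a on the log2 scale. On the epithelial side they were -1.12 for Ly6c1, -0.99 for Rnd3, -0.70 for Ly6a, -0.68 for Tnfaip2, -1.02 for Adamts9, -0.84 for Spry2, -0.96 for Mbnl3, -1.17 for Plau, -0.74 for Creb3l1, -1.22 for Slco1a5, -0.44 for Tpm1 and -0.78 for Myc.

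In 6 of 108 groups of 4 libraries of the named genes 1 library stood apart from the others (its gap to the nearest exceeded Dixon's critical share of the range), and chance gives about 1 in 20. Sorbs2 was at 64.5 CPM in Epcam+ cells of mouse 3 with vehicle, where the nearest library had 50.4. Ly6a was at 100.3 CPM in CCL206 fibroblasts of mouse 2 with vehicle, where the nearest had 91.8. In Epcam+ cells of mouse 4 with OGN, Mbnl3 was at 20.6 CPM (nearest 37.6), Plau at 117.9 CPM (nearest 74.3) and Tpm1 at 980.4 CPM (nearest 796). Slco1a5 was at 37.7 CPM in Epcam+ cells of mouse 3 with OGN (nearest 29.4).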

How the results depend on the processing

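All 90 genes kept their direction in every alternative in which they were tested, which their selection on these same libraries favours. The number of genes called, 90 (78 higher in CCL206 fibroblasts, 12 in Epcam+ cells), was 55 (46 higher in fibroblasts) with no replicate block, 139 (23 higher in Epcam+ cells) with DESeq2, 27 (13 higher in fibroblasts) with the epithelial marker term chosen after seeing the data, 24 (22 and 2) at an adjusted p under 0.01 and 33 (29 and 4) for differences above 1. With the replicate block of culture, pairing both fractions of a mouse, 119 were called (86 of the 90), 21 of them on the epithelial side. Leaving out 1 mouse gave 17 to 72 genes, 15 to 63 on the fibroblast side and 0 to 9 on the epithelial side. The 1013 genes within CCL206 fibroblasts became 442 with the culture block, 444 with the marker term, 502 at 0.01, 160 above 1 and 519 to 746 without 1 mouse. The 272 within Epcam+ cells became 168 with the culture block, 144 at 0.01, 71 above 1 and 121 to 219 without 1 mouse. Over all 32 libraries 69 genes were called, 58 of them among the 90, and DESeq2 called 88 of the 90. Of the named genes and study genes, 480 values under the alternatives kept their side of the threshold and 75 no longer passed it, 16 each without mouse 2 and with the marker term. Wnt7b, which had only 6 to 30 counts in CCL206 libraries with vehicle, passed with the culture block (1.20), with DESeq2 (1.20) and without mouse 1 (1.41). The cause of these changes was not tested, beyond the fewer libraries of each fit without 1 mouse. Depth limits genes near 3 counts in a library, such as C130074G19Rik.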

Other observations

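Parallel cultures of the same mice received extracellular vesicles (EVs) and soluble factors (SFs) of MRC5 human lung fibroblasts and were compared with the same vehicle libraries, so the values share their controls and are set side by side only. In the model over 32 libraries the difference of responses between CCL206 fibroblasts and Epcam+ cells was 2.02 ± 0.25 (SE) with OGN, -0.018 ± 0.26 with EVs and 0.83 ± 0.26 with SFs for Slc7a2. For Il33 it was 1.27 ± 0.13, 0.58 ± 0.13 and 0.60 ± 0.13 in the same order. Ptges had 1.30 ± 0.16, 0.28 ± 0.16 and 0.30 ± 0.16, Sorbs2 1.76 ± 0.21, 0.42 ± 0.23 and 0.79 ± 0.22, and Lcn2 1.54 ± 0.22, 0.46 ± 0.23 and 0.42 ± 0.23. Epas1 had 1.27 ± 0.17, -0.043 ± 0.18 and 0.28 ± 0.17, Hp 1.69 ± 0.25, 1.10 ± 0.25 and 0.10 ± 0.25, and Ly6c1 -1.11 ± 0.19, -0.15 ± 0.19 and -0.15 ± 0.19.

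Endogenous Ogn, which encodes the mouse protein, fell in both fractions with the added human protein, by a log2 change of -1.33 ± 0.14 in CCL206 fibroblasts and -1.20 ± 0.20 in Epcam+ cells, with a difference of -0.12 ± 0.25 (adjusted p = 0.966). Its level in CCL206 fibroblasts with vehicle was 466% of that in Epcam+ cells, beside a median of 442% for the 9 fibroblast markers. Counts of Ogn in Epcam+ libraries were low, at 130, 20, 47 and 59 with vehicle and 14, 23, 60 and 23 with OGN. What part fibroblast RNA in the Epcam+ libraries had in the Epcam+ change of Ogn was not tested.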
